A study of Mus musculus with 12 samples.

Results

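The 10 genes of the hepatic methionine cycle were followed in liver RNA of 12 adult male C57Bl/6J mice, 3 in each of 4 diet groups, after 7 days of feeding. The genes were chosen by name for their place in the cycle, with earlier results of these data known, and all 10 of them, out of 36047 genes matched to the annotation, passed the filter on low counts that left 14670 genes for testing. The mice ate a regular-fat (RF) or a high-fat (HF) diet that was either a control diet (Ctrl) or restricted in sulfur amino acids (SAAR). All 4 diets lacked cysteine, so the controls carry that lack too, and the restricted diets held less methionine, replaced by glutamic acid. Libraries were made from polyadenylated RNA and the values are estimated read counts summed over the transcripts of a gene. Levels are given as normalized CPM, each gene's share of the library's counts on the TMM scale, when mice are compared, and as TPM, which also divides by transcript length, when genes are compared.

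In the methionine cycle, methionine adenosyltransferase joins methionine to ATP and makes S-adenosylmethionine (SAM), the methyl donor of the cell. Mat1a encodes the catalytic subunit of the adult liver, Mat2a the catalytic subunit used by most other tissues and by growing liver, and Mat2b a regulatory subunit that partners the Mat2a product. Methyltransferases such as Gnmt, which methylates glycine, and Pemt, which methylates phosphatidylethanolamine to phosphatidylcholine, turn SAM into S-adenosylhomocysteine, which Ahcy splits into adenosine and homocysteine. Homocysteine is remade into methionine by Bhmt with betaine, by Bhmt2 with S-methylmethionine, or by the cobalamin enzyme Mtr, which Mtrr keeps reduced and active. The liver is the main organ of this pathway, and the comparisons below ask how its RNAs stood when dietary methionine was lowered on each fat background.

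The depth was 16203094 to 21230092 estimated counts a mouse. The hepatocyte markers Alb, Apoa1, Ttr, Hnf4a and Cps1 summed to 65600 to 86900 normalized CPM in every mouse, and none was at 0 in any mouse. The 14 pancreatic acinar markers summed to between 13.2 and 10800 CPM, with Amy2b alone at 0, in 4 mice, and 5 mice exceeded 500 CPM: replicate 1 of RF.Ctrl, replicates 1 and 2 of HF.Ctrl and replicates 2 and 3 of HF.SAAR. On regular fat the sum reached at most 891 CPM in controls and 42.1 CPM in restricted mice, and on high fat at most 3680 and 10800 CPM. The TMM factors, which correct for RNA composition, were 0.863 to 0.998 in control mice and 0.980 to 1.110 in restricted mice. Without them the median of all genes shifts by 0.16 on the log2 scale between SAAR and Ctrl, and the genes called higher and lower go from 472 and 543 to 2175 and 274, so every change below is relative to that median. In a bulk tissue sample, fewer cells of a type and less RNA per cell cannot be told apart.

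On the per-length scale the members differed widely in level. In RF.Ctrl mice Bhmt stood at 1880 ± 390 TPM and Gnmt at 1840 ± 124 TPM (mean ± SD, n = 3 here and for all group values below), levels that did not differ beyond their spread. Mat1a followed at 751 ± 69.2 TPM and Ahcy at 645 ± 51.3 TPM, with Mat1a the higher in each RF.Ctrl mouse, then Pemt at 344 ± 17.9 TPM and Bhmt2 at 78.2 ± 9.76 TPM. Mat2b at 22.8 ± 1.56 TPM and Mat2a at 20 ± 1.68 TPM were close, with Mat2b the higher in each RF.Ctrl mouse. The cobalamin branch was lowest, with Mtrr at 3.28 ± 0.200 TPM and Mtr at 1.34 ± 0.438 TPM. The betaine enzyme Bhmt and the glycine methyltransferase Gnmt were thus the most abundant RNAs of the set in control liver. In HF.SAAR mice Mat1a, at 1340 ± 128 TPM, stood well above Ahcy at 707 ± 35.5 TPM. TPM values carry no correction for RNA composition, and several members that were not called on the normalized CPM scale have higher mean TPM in restricted mice.

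The genes are spread over 6 chromosomes (GRCm38), with Bhmt (chr13:93616675-93637961) and Bhmt2 (chr13:93655720-93674302) side by side on the minus strand. Mat1a lies at chr14:41105035-41124412 on the plus strand and Mat2a at chr6:72432799-72439558 on the minus strand. Each of these pairs descends from a common gene, and the values depend on how well reads tell the copies apart. The coding sequences of Mat1a-201 and Mat2a-201, of 1191 and 1188 bases, matched at 73.5% of aligned positions and their longest identical run was 15 bases. Those of Bhmt-201 and of the single Bhmt2 transcript matched at 75.3%, with a longest identical run of 59 bases. The windows shown are read from the GENCODE transcripts, 5′ to 3′, each begins 8 bases before the longest identical run of its pair, and capitals mark the positions at which the members of a pair differ. They were chosen because each holds all or part of the longest run over which the copies are identical.
Mat1a-201, exon 4, chr14:41114259-41114288, plus strand: aacagtcCccagatattgcccaaTgtgtCc
Mat2a-201, exon 4, chr6:72436458-72436487, minus strand: aacagtcAccagatattgcccaaGgtgtTc
Bhmt-201, exon 7, chr13:93620218-93620247, minus strand: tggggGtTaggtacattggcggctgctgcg
Bhmt2, exon 7, chr13:93662438-93662467, minus strand: tggggAtCaggtacattggcggctgctgcg
In the window shown the Mat1a and Mat2a pair differs at 3 of 30 positions, whereas the Bhmt pair is identical from the first base after its second capital onward.

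The authors' quantifier, kallisto, assigns reads by exact words of the sequence, here counted at 31 bases. None of the 3465 words of Mat1a occurred in any other listed gene, and the same held for Gnmt and for Mtr. Mat2a shared 9.15% of its words with the processed pseudogene Gm9523, which reached at most 0.0667 TPM. Ahcy shared 71.4% of its words, mostly with the look-alike gene Gm4737 and the processed pseudogene Gm9826, but these reached at most 1.27 and 0.346 TPM far under the level of Ahcy. Bhmt shared 29.9% of its words, mostly with the look-alike gene Gm5096, at most 2.87 TPM, and only 40 words with Bhmt2. Ahcy and Bhmt values are therefore less certain than those of Mat1a, since the split of shared reads is an estimate.

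**Figure D1:**
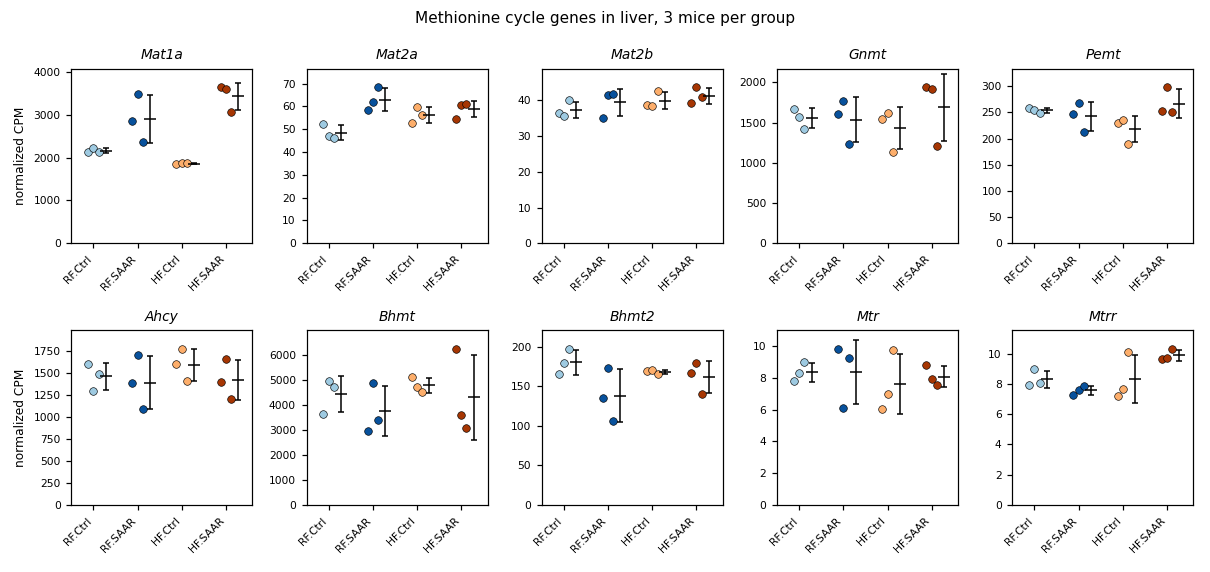
Normalized CPM of the 10 genes, 1 panel a gene with its own axis from 0, in each diet group. Points are mice (3 a group), and the bar beside them is the mean with its SD. Mat1a is the gene in which all 6 restricted mice lie above all 6 controls.

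Mat1a RNA rose with restriction. In RF.Ctrl mice it measured 2120, 2220 and 2140 normalized CPM, and in RF.SAAR mice 2850, 3480 and 2370 CPM. The HF.Ctrl mice stood at 1840, 1870 and 1870 CPM and the HF.SAAR mice at 3640, 3590 and 3060 CPM. The lowest restricted mouse, RF.SAAR replicate 3, was above the highest control, so the 2 diets did not overlap over all 12 mice, which was true, in the higher direction, of 1.94% of all genes tested. Controls varied little (SD 53.4 CPM in RF.Ctrl and 19.8 CPM in HF.Ctrl), and restricted mice varied more (SD 557 and 321 CPM).

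Over both fat levels Mat1a was higher by 0.65 on the log2 scale (SE 0.084, 6 mice against 6, adjusted p = 0.00046, edgeR's quasi-likelihood test with Benjamini-Hochberg adjustment over all genes). Of the 10 genes Mat1a alone was called, against 3.22% of all genes called higher and 3.70% called lower. At an unadjusted p under 0.05 Mat2a joined it, 2 of 10 against 20.3% of all genes. In HF.SAAR vs. HF.Ctrl the difference was 0.88 (SE 0.119, adjusted p = 0.00149), and again Mat1a alone of the 10 was called, against 1.01% of all genes called higher and 0.961% called lower. There 2 of 10, Mat1a and Pemt, had an unadjusted p under 0.05, against 12.4% of all genes. In RF.SAAR vs. RF.Ctrl the difference was 0.42 (SE 0.118, unadjusted p = 0.00319), which did not pass adjustment in edgeR (adjusted p = 0.107) but did in DESeq2 (adjusted p = 0.0245). The RF difference moved with single mice left out, and was 0.56 without RF.SAAR replicate 3 (adjusted p = 0.0327, edgeR) and 0.27 without RF.SAAR replicate 2 (adjusted p = 0.239). With the pancreatic acinar signal as a covariate the HF difference was 0.89 (adjusted p = 0.00252). In the 7 mice at or under 500 CPM of acinar markers it was 0.94 (SE 0.251, adjusted p = 0.301), a value that rests on 1 mouse in each HF group, each assumed to vary as the other mice do, and the difference over both fat levels was 0.68 (SE 0.150, adjusted p = 0.0652).

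On the RF background 0 of the 10 genes were called by edgeR, against 0.600% of all genes called higher and 0.886% called lower. An unadjusted p under 0.05 was reached by 3 of 10, namely Mat1a, Mat2a and Bhmt2, against 13.6% of all genes. DESeq2 called 2 of 10, Mat1a and Mat2a, against 4.80% of all genes. Non-overlapping groups were seen for Mat1a and Mat2a, higher, and for Mtrr, lower, against 8.51% and 9.70% of all genes. The median log2 fold change of SAAR over Ctrl for the 10 genes was -0.05 on regular fat, with 4 of 10 above 0, and 0.07 on high fat, with 7 of 10 above 0. The median of all genes was -0.001 on each background.

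**Figure D2:**
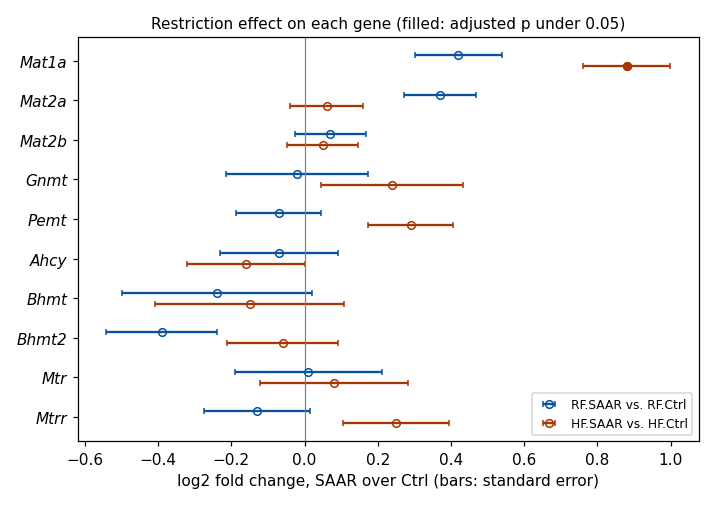
Log2 fold change of SAAR over Ctrl for each gene, from RF mice (blue) and HF mice (brown), with bars of 1 standard error. The filled point, Mat1a in HF mice at 0.88, is the single one with an adjusted p under 0.05.

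Mat2a, the subunit of non-hepatic tissues, did not pass the test in edgeR on either background. It measured 52.4, 47.0 and 46.3 normalized CPM in RF.Ctrl mice and 58.4, 62.1 and 68.4 CPM in RF.SAAR mice. The HF.Ctrl mice stood at 52.8, 59.9 and 56.2 CPM and the HF.SAAR mice at 54.6, 60.7 and 61.0 CPM. The RF groups did not overlap, whereas the HF groups did. The log2 fold change was 0.37 on the RF background (SE 0.099, adjusted p = 0.0896, edgeR), 0.06 on the HF background (SE 0.099, adjusted p = 0.876) and 0.22 over both (SE 0.070, adjusted p = 0.0842). DESeq2 called the RF difference, with an adjusted p of 0.011, and the difference over both levels, with an adjusted p of 0.0334, as did edgeR with library size alone and with the acinar covariate. In the mice of low acinar RNA the HF value was -0.06. Mat2b, the regulatory subunit, lay between 35.2 and 43.7 CPM in all 12 mice, and its 3 differences between SAAR and Ctrl were 0.05 to 0.07 on the log2 scale with standard errors of 0.069 to 0.097.

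The ratio of Mat2a to Mat1a within a mouse compares the catalytic subunits without any scaling between mice. In TPM it was 0.0298, 0.0264 and 0.0239 in RF.Ctrl mice and 0.0242, 0.0202 and 0.0331 in RF.SAAR mice. It was 0.0352, 0.0374 and 0.0338 in HF.Ctrl mice and 0.0180, 0.0226 and 0.0228 in HF.SAAR mice. All 3 HF.SAAR mice were below all 3 HF.Ctrl mice, and the RF groups overlapped, with RF.SAAR replicate 3 the highest of the 6 RF mice. The group means went from 0.0267 ± 0.00294 to 0.0258 ± 0.00660 on regular fat and from 0.0355 ± 0.00180 to 0.0211 ± 0.00269 on high fat. Over both levels log2 of the ratio was lower by 0.41 in restricted mice, as a difference of -0.413 (two-sided exact permutation within fat level, p = 0.045, 400 relabelings, smallest possible p 0.005). That p is for this single measure. Leaving out 1 mouse gave p from 0.015 to 0.105, and it was over 0.05 for 10 of the 12 mice left out, while the difference kept its sign. Within a fat level the smallest p that 3 against 3 mice allow is 0.1, which is the value on high fat, and on regular fat p was 0.9.

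**Figure D3:**
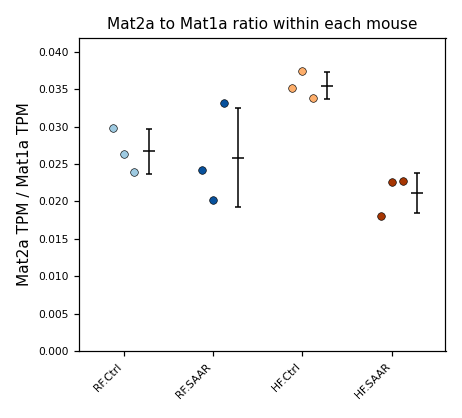
Mat2a TPM divided by Mat1a TPM in each mouse, on an axis from 0, by group. Points are mice and the bar is the mean with its SD. The 3 HF.SAAR mice lie at 0.0180 to 0.0228, under the 3 HF.Ctrl mice at 0.0338 to 0.0374, and the RF groups overlap.

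The SAM-consuming members did not pass the test. Gnmt measured 1140 to 1770 normalized CPM in 10 of 12 mice and 1920 and 1940 CPM in HF.SAAR replicates 2 and 1, and its differences between SAAR and Ctrl ran from -0.02 to 0.24 (adjusted p from 0.705 to 0.983). The spread was widest in HF.SAAR mice, at 1690 ± 420 CPM. Pemt measured 259, 255 and 249 CPM in RF.Ctrl mice and 247, 268 and 212 CPM in RF.SAAR mice. It measured 229, 235 and 189 CPM in HF.Ctrl mice and 253, 298 and 250 CPM in HF.SAAR mice. The HF groups of Pemt did not overlap, as was true, in the higher direction, of 8.89% of all genes, and the RF groups did. Its log2 fold change was 0.29 on high fat (SE 0.116, unadjusted p = 0.0246, adjusted p = 0.289) and -0.07 on regular fat (SE 0.116, adjusted p = 0.882). The RF value turned to 0.09 with library size alone and to 0.02 without RF.SAAR replicate 3, and with library size alone the HF value of 0.46 was called (adjusted p = 0.0123).

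Ahcy, which removes S-adenosylhomocysteine, measured 1090 to 1770 normalized CPM. Its differences between SAAR and Ctrl were -0.07 on regular fat (SE 0.160, adjusted p = 0.925) and -0.16 on high fat (SE 0.160, adjusted p = 0.761). Restricted and control mice overlapped on both backgrounds.

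No remethylating enzyme was called between SAAR and Ctrl by edgeR or DESeq2, and Bhmt2 on regular fat alone had an unadjusted p under 0.05. Bhmt was the most variable, from 2980 CPM in RF.SAAR replicate 1 to 6240 CPM in HF.SAAR replicate 1, with differences of -0.24 on regular fat (SE 0.259) and -0.15 on high fat (SE 0.259). Bhmt2 measured 165, 179 and 197 CPM in RF.Ctrl mice and 135, 173 and 106 CPM in RF.SAAR mice, with a log2 fold change of -0.39 (SE 0.152, unadjusted p = 0.0232, adjusted p = 0.265). That value was -0.22 without RF.SAAR replicate 3 and -0.59 without RF.SAAR replicate 2, with adjusted p of 0.677 and 0.0729 (edgeR). On high fat Bhmt2 measured 169, 171 and 166 CPM in the controls and 167, 179 and 140 CPM in restricted mice. That is a difference of -0.06 (SE 0.152, adjusted p = 0.934), and it turned to 0.10 with library size alone and to 0.03 without HF.SAAR replicate 3. The cobalamin pair was low throughout, Mtr at 6.07 to 9.81 CPM and Mtrr at 7.18 to 10.3 CPM. Mtr differed by 0.01 (SE 0.201) on regular fat and 0.08 (SE 0.202) on high fat, and Mtrr by -0.13 (SE 0.146) and 0.25 (SE 0.145).

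Fat content was compared within each diet. The regular-fat and high-fat diets came from different suppliers, and the paper states that mice on high fat ate less food by weight. These comparisons, and the interaction below, therefore do not vary fat content alone. No gene of the cycle was called by edgeR or DESeq2 in HF.SAAR vs. RF.SAAR, in HF.Ctrl vs. RF.Ctrl or in HF vs. RF over both diets. There edgeR called 0.0477%, 0.00% and 0.0409% of all genes, and DESeq2 0.564%, 0.212% and 0.762%. At an unadjusted p under 0.05 there was 1 of 10 in the first, 1 of 10 in the second and 0 of 10 in the third, beside 5.59%, 3.59% and 5.84% of all genes. Among control mice Mat1a was lower on high fat in each mouse, at -0.22 (SE 0.118, unadjusted p = 0.0894), and so was Pemt at -0.22 (SE 0.116, unadjusted p = 0.0743), while Mat2a was higher in each mouse, at 0.21 (SE 0.099, unadjusted p = 0.05). Without HF.Ctrl replicate 3 the Pemt value was -0.13. All 3 had an adjusted p of 1, and groups that did not overlap were seen in 4.42% of all genes in the lower and 4.09% in the higher direction. These mice are the controls of the restriction comparisons too. Among restricted mice Mtrr measured 7.27, 7.63 and 7.83 CPM on regular fat and 9.63, 9.70 and 10.3 CPM on high fat, a difference of 0.38 (SE 0.144, unadjusted p = 0.0192, adjusted p = 0.805), with groups that did not overlap in the higher direction, as in 5.47% of all genes.

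The difference between the restriction effects on high and regular fat was itself tested. The effect on Mat1a was larger on high fat by 0.46 (SE 0.167, unadjusted p = 0.0162), that on Pemt by 0.36 (SE 0.164, unadjusted p = 0.0436), and that on Mat2a was smaller by 0.31, as a difference of -0.31 (SE 0.140, unadjusted p = 0.0428). None passed adjustment over all genes (adjusted p = 0.999 for each). These 3 of 10 stood beside 3.15% of all genes at an unadjusted p under 0.05, and 0.00682% of all genes were called. DESeq2 called none of the 10, beside 0.106% of all genes. The effect of restriction on a member was thus not shown to depend on fat content.

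The values of single Mat1a transcripts were then compared. Mat1a-201 held 60.9% of Mat1a TPM on average and Mat1a-203 held 30.9%. Mat1a-203 begins at 41105035 with an exon of 226 bases that holds no coding base, whereas Mat1a-201 begins at 41105381, inside the second exon of Mat1a-203, and both have the same coding sequence. Mat1a-201 measured 1350, 1220 and 1100 normalized CPM in RF.Ctrl mice and 2000, 2570 and 1410 CPM in RF.SAAR mice. On high fat it measured 1030, 1260 and 961 CPM in controls and 2550, 2590 and 2200 CPM in restricted mice. The restricted mice were again all above the controls, as was true of 0.919% of all transcripts tested.

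In a fit of 35708 transcripts Mat1a-201 was higher by 0.94 over both fat levels (SE 0.14, adjusted p = 0.00855, edgeR) and by 1.17 on high fat (SE 0.19, adjusted p = 0.0356), where 1.49% and 0.356% of all transcripts were called. On regular fat it differed by 0.71 (SE 0.19, adjusted p = 0.289), where 0.148% were called. Mat1a-203 measured 771 to 985 CPM in RF.Ctrl mice, 840 to 923 in RF.SAAR, 610 to 868 in HF.Ctrl and 843 to 1060 in HF.SAAR, a difference of 0.14 over both levels (SE 0.10, adjusted p = 0.712). On high fat Mat1a-203 differed by 0.32 (SE 0.14, edgeR unadjusted p = 0.0486, adjusted p = 0.652) and on regular fat by -0.05 (SE 0.14). Mat1a-202, the remaining transcript, differed by 0.66 on high fat (SE 0.29, edgeR unadjusted p = 0.0445, adjusted p = 0.636) and by 0.04 on regular fat (SE 0.29). The share of Mat1a TPM in Mat1a-201 was 55.0 ± 7.13% in the 6 control mice and 66.9 ± 5.09% in the 6 restricted mice, a difference of 11.9 percentage points (two-sided exact permutation within fat level, p = 0.025). This share was examined after the transcript values had been seen. All of the 3178 words of 31 bases in Mat1a-201 also occur in other Mat1a transcripts, and 179 words are particular to Mat1a-203, so the split rests on reads at the 5′ end and carries an assignment error that the deposited values do not give.

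**Figure D4:**
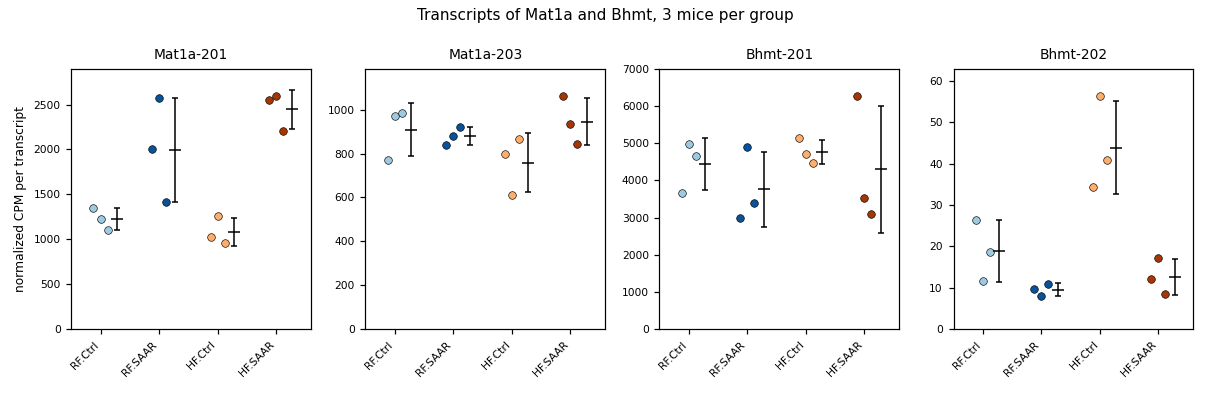
Normalized CPM of single transcripts by mouse, for Mat1a-201, Mat1a-203, Bhmt-201 and Bhmt-202, each panel with its own axis from 0. Points are mice and the bar is the mean with its SD. Mat1a-201 is higher in the restricted mice and Bhmt-202 is lower, while Mat1a-203 and Bhmt-201 were not called.

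Bhmt-202, a minor retained-intron transcript that carried 0.304% of Bhmt TPM, differed in the opposite direction. It was singled out after its values had been seen. Its last exon, at chr13:93621881-93625488, takes in exons 4 and 5 of Bhmt-201, the intron between them and part of the next, and 3262 of its 3933 words occur in no other listed transcript. It measured 26.4, 11.5 and 18.5 normalized CPM in RF.Ctrl mice and 9.78, 7.98 and 10.9 CPM in RF.SAAR mice. The HF.Ctrl mice stood at 34.3, 56.2 and 40.8 CPM and the HF.SAAR mice at 12.0, 17.1 and 8.45 CPM. Restricted mice were lower than the controls of their fat level in every case, which was true of 7.37% of all transcripts on regular fat and 6.53% on high fat. Over both fat levels Bhmt-202 fell by 1.39 on the log2 scale (SE 0.23, adjusted p = 0.018, edgeR), while Bhmt-201, with 99.7% of the TPM, differed by -0.19 (SE 0.18, adjusted p = 0.815). Without HF.SAAR replicate 1 the adjusted p of Bhmt-202 was 0.061. On the single backgrounds Bhmt-202 differed by -0.97 on regular fat (SE 0.33, adjusted p = 0.436) and by -1.81 on high fat (SE 0.33, adjusted p = 0.0601).

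Mat2a RNA is known to be retained with introns when SAM is plentiful and spliced when it is scarce. The share of Mat2a TPM in its transcripts annotated as retained intron was examined. These transcripts lie within chr6:72436417-72439556, the 5′ part of this minus-strand gene. Introns nearer the 3′ end are therefore not covered, and the share cannot show whether they are retained. The share was 6.65 ± 2.41% in the 6 control mice and 4.74 ± 1.29% in the 6 restricted mice. It lay at 3.78, 7.09 and 5.90% in RF.Ctrl mice, 4.49, 4.50 and 5.95% in RF.SAAR mice, 10.7, 4.93 and 7.51% in HF.Ctrl mice and 6.58, 3.53 and 3.37% in HF.SAAR mice. The groups overlapped on both backgrounds, and the difference of -1.92 percentage points did not pass the test (two-sided exact permutation within fat level, p = 0.115). Without HF.Ctrl replicate 1 it was -1.17, and p ran from 0.055 to 0.25 over the mice left out in turn. These shares rest on few reads, since each retained-intron transcript held at most 9.05 estimated counts in any mouse. With estimated counts in place of TPM the difference was -0.374 percentage points (same permutation test, p = 0.14).

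A list of 38 genes of the pathways that meet the cycle was read in the same fit, and all 38 passed the filter. Over both fat levels 2 were called higher and 5 lower, beside 3.22% and 3.70% of all genes, with a median log2 fold change of -0.09. Inmt, which methylates indole amines with SAM, was lower by the widest margin among those called. It measured 222, 205 and 303 CPM in RF.Ctrl mice and 110, 122 and 104 CPM in RF.SAAR mice. On high fat Inmt measured 192, 209 and 228 CPM in controls and 67.7, 94.1 and 100 CPM in restricted mice. No restricted mouse reached the lowest control, and Inmt fell by 1.19 over both levels (SE 0.12, adjusted p = 6.21e-05), with adjusted p of 0.00482 on regular fat and 0.00133 on high fat (edgeR).

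Other small-molecule methyltransferases of the list were called over both fat levels. Lower, besides Inmt, were Tpmt, which methylates thiopurines, by -0.53 (adjusted p = 0.0054), and Hnmt, which methylates histamine, by -0.34 (adjusted p = 0.0499, both edgeR). Higher was As3mt, the arsenite methyltransferase, by 0.70 (SE 0.14, adjusted p = 0.00993), which measured 31.8 ± 1.43 and 41.7 ± 9.80 CPM in RF.Ctrl and RF.SAAR and 23.0 ± 5.47 and 46.2 ± 9.90 CPM in HF.Ctrl and HF.SAAR.

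Of the 5 genes of choline and betaine oxidation, Aldh7a1, which oxidizes betaine aldehyde among other aldehydes, was called lower by -0.45 (SE 0.07, adjusted p = 0.00185, edgeR). It measured 528 ± 23.1 and 371 ± 40.3 CPM in RF.Ctrl and RF.SAAR and 526 ± 13.0 and 401 ± 35.1 CPM in HF.Ctrl and HF.SAAR. Sardh, the sarcosine dehydrogenase that takes up the product of Gnmt, differed by -0.33 over both fat levels (adjusted p = 0.0501, edgeR). DESeq2 called 2 of the 5 there, Sardh and Aldh7a1, beside 9.03% of all genes.

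None of the 9 polyamine and methionine salvage genes, the 4 genes of SAH hydrolase-like proteins, SAM sensing and SAM transport, or the 2 genes of the transsulfuration exit was called by edgeR over both levels. An unadjusted p under 0.05 was reached by 0 of 9, 1 of 4 and 2 of 2 of them, beside 20.3% of all genes, and DESeq2 called 0, 0 and 1, the 1 being Cbs, beside 9.03% of all genes. Amd2 differed by -1.61 on regular fat and 1.24 on high fat, but its group means were only 0.142 to 2.04 CPM. Cbs and Cth, which carry homocysteine on to cysteine, differed by 0.26 and 0.30 over both levels (adjusted p = 0.0862 and 0.239, edgeR). On the single backgrounds 3 of the 38 were called lower on regular fat (Inmt, Tpmt and Aldh7a1), beside 0.886% of all genes. On high fat 1 was called lower (Inmt) and 1 higher (As3mt), beside 0.961% and 1.01% of all genes.

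**Figure D5:**
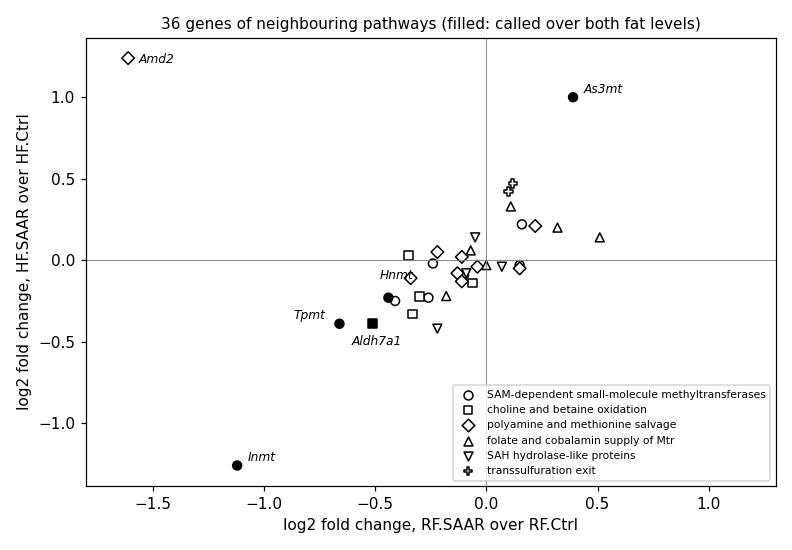
Log2 fold change of SAAR over Ctrl for 36 genes of neighbouring pathways, in RF mice on the horizontal and HF mice on the vertical axis, with a symbol for each list. Filled symbols are the 5 of them called over both fat levels. Inmt lies lowest, As3mt is the filled symbol on the higher side, and Amd2, at the upper left, has under 3 CPM in every group on average.

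As a description, the genes whose log2 CPM ran most like Mat1a over the 12 mice were Cyp17a1 (Pearson r 0.96), Nqo1 (r 0.954) and Gstm4 (r 0.946), and those most like Mat2a were Hsdl2 (r 0.933), Hadhb (r 0.914) and Bend3 (r 0.909). The points share their libraries and their diet groups. Between members the largest correlations were Gnmt with Pemt (r 0.76), Ahcy with Bhmt2 (r 0.71) and Mat2a with Bhmt2 (r -0.69), and Mat1a with Mat2a gave r 0.37.

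RefSeq gave start-site windows, 250 bases before to 50 after (GRCm38.p6), for 9 of the 10 genes, 11 windows in all. They were searched on both strands for the core of the amino acid response element, TGATGNAA, and of the antioxidant response element, TGACNNNGC. The gene without a window is Mat1a, so nothing is said of it here. None of the 11 windows held either, whereas 3.97% and 12.4% of 32851 windows did. The absence of a match says only that these letters are not in these windows.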

How the data were processed

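Liver RNA of 12 mice was sequenced from polyadenylated, paired-end libraries. The authors trimmed reads with cutadapt and quantified them with kallisto on Ensembl transcripts of GRCm38, giving for each mouse the deposited estimated counts per transcript, the deposited TPM and the effective lengths, none normalized between mice. Versions of these tools are not given in the labels.

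Transcript identifiers were matched to GENCODE vM21 on the same build, and 116816 of 118489 matched (1.08% of all counts did not). Estimated counts were summed by gene, rounded and fitted in R 4.3.3 with edgeR 4.0.16 (robust quasi-likelihood F-test on all 12 mice with 1 coefficient a group, after TMM scaling and filterByExpr), with Benjamini-Hochberg adjustment over all genes tested and calls at an adjusted p under 0.05. The common biological coefficient of variation was 0.215. The standard error is the log2 fold change over the square root of F. The scripts were tested on simulated data. TPM summed by gene gave the Mat2a to Mat1a ratio and transcript shares, with two-sided exact permutation tests. The transcript fit used the same settings.

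Total counts of 16203094 to 21230092 carry no molecular identifiers. Every SD given is the variation among mice. The standard errors come from the edgeR fit, in which all groups share an estimate of the spread that also draws on other genes. In the labels the field for diet holds HF or RF and the field for dietary fat content holds Ctrl or SAAR. The names of these fields look swapped, so the group of each mouse was taken from both values together. The labels give no replicate numbers, so mice were numbered in accession order.

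The members, lists and tests were chosen with earlier results of these data known, and the lists are not independent evidence. Named were the 10 members, list genes called in a comparison of SAAR with Ctrl (some of these count in the totals but are not reported here), the 3 genes most like Mat1a and Mat2a, and look-alike genes. Genes named otherwise (Amd2, Sardh, Cbs, Cth) and Bhmt-202 were added after their values were seen. Alternatives were RLE factors, library size alone, other filters, effective-length offsets, the compared groups alone, DESeq2 1.42.0, protein coding transcripts, an acinar covariate and leaving out each mouse. A fit of the mice at or under 500 CPM of acinar markers was added after seeing the data.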

Additional observations from a re-analysis of the deposited data

How the results depend on the processing

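The number of the 10 genes called moved with scaling, tool and single mice, and so did the calls among all genes. On regular fat edgeR called 88 genes higher and 130 lower of 14670. With library size alone these were 359 and 66, and with the acinar covariate 95 and 138. On high fat 148 and 141 became 639 and 80 with library size alone. Over both levels 472 and 543 became 2175 and 274 with library size alone, and 540 and 564 with the acinar covariate. DESeq2 called 4.80% of all genes on regular fat and 9.03% over both levels. On regular fat the number of members called was 0 and became 2 with library size alone, 2 with DESeq2 and 1 with the acinar covariate. It was 0 to 1 when 1 mouse was left out, the 1 being Mat1a without RF.SAAR replicate 3. On high fat it was 1 and became 2 with library size alone and 0 in the mice of low acinar RNA, and 1 to 1 when 1 mouse was left out. Over both fat levels it was 1 and became 3 with library size alone, 2 with DESeq2 and with the acinar covariate, and 0 in the mice of low acinar RNA. The fat comparisons and the interaction gave 0 under every alternative that was run. Mat1a kept its direction throughout, between 0.27 and 0.56 on regular fat and between 0.84 and 0.96 on high fat when 1 mouse was left out. Of the 38 genes of the neighbouring lists DESeq2 called 5 on regular fat, 4 on high fat and 10 over both levels. Of all genes it called 4.80%, 4.65% and 9.03%. It called 1 list gene in HF.SAAR vs. RF.SAAR and 1 in HF vs. RF over both diets, beside 0.564% and 0.762% of all genes. With library size alone 4 list genes were called on high fat and 11 over both levels, beside the calls among all genes given above. The Mat2a to Mat1a difference was -0.51 to -0.332 when 1 mouse was left out. Values that changed sign were Pemt on regular fat (0.09 with library size alone, -0.15 to 0.02 when 1 mouse was left out), Bhmt2 on high fat (0.10 with library size alone, -0.14 to 0.03 when 1 mouse was left out) and Mat2a on high fat (-0.06 in the mice of low acinar RNA). Of 492 alternative values of the named log2 fold changes, 473 kept their direction and side of the threshold, 11 became called, 3 lost their call and 5 changed sign. Of the other 50 log2 fold changes of members, 34 changed sign under at least 1 alternative and 0 became called. The cause of these shifts was not tested, except that library size alone moves the median of all genes by 0.16. No paired analysis was made, because each mouse was fed a single diet and the groups hold different mice.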
